A study of Bos taurus with 79 samples.

Results

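Ion channels, ion pumps, water channels and carbonic anhydrases were followed in bovine endometrium. Members were taken by symbol: CA or AQP followed by a number, the pump families ATP1A, ATP1B, ATP2A, ATP2B, ATP2C and ATP6V, the chloride families CLCN, CLCA and CLIC, all KCN and SCNN1 symbols, and CFTR. This gave 121 probe sets of 81 genes, out of 24016 probe sets of 9155 named genes. No ATP1A, AQP8 or CA12 probe set was found, and these genes were not analysed here.

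The samples were strips of endometrium from cross-bred beef heifers, 1 Affymetrix array each, 79 in all. Heifers were pregnant with high progesterone (PH), pregnant with normal progesterone (PN), cyclic with high progesterone (CH) or cyclic with normal progesterone (CN), and were slaughtered on day 5, 7, 13 or 16. High progesterone came from a PRID, a progesterone-releasing intravaginal device inserted on day 3 and left in until slaughter, so device and hormone cannot be told apart. There were 5 arrays in each of the 16 groups, apart from the 4 of CH heifers on day 7. All values are log2 signals of a probe set as deposited, a difference of 1 being a doubling, and no probe set is compared in level with another. Differences carry the standard error of a limma fit over all arrays, and a probe set was called when its Benjamini-Hochberg adjusted p over all probe sets was under 0.05. The number of arrays limits the precision. The labels name no shared litter or batch, and each p measures the spread between these arrays. Where a gene has several probe sets they are lettered A, B, C by falling mean signal, which is a name only.

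The endometrium lines the uterus, and its surface and glands secrete the fluid in which the early embryo lives. In secretory epithelia chloride leaves the cell through the apical channel CFTR, sodium is taken back through the epithelial sodium channel ENaC, which is built of the SCNN1 subunits, and water follows through aquaporins. The gradients come from the sodium pump, and potassium channels set the membrane voltage. Carbonic anhydrases make bicarbonate and protons from carbon dioxide, and the V-ATPase pumps protons across membranes.

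Of the 121 probe sets 40 had a mean under 3 in every group, near the floor of the values, and 27 genes had no probe set above that level. There a change cannot be measured well. AQP3 and AQP5, the SCNN1B subunit and the calcium pump ATP2B4 were among them. At the other end 39 probe sets spanned over 1 and 21 over 2 log2 units between their lowest and highest group mean. In at least 1 of the 11 comparisons below, 60 probe sets of 44 genes were called.

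Stroma markers averaged between 10.61 and 11.46 on every array and epithelium markers between 6.99 and 8.24, with 1 of 11 measured epithelium markers near the floor. Of 6 measured red cell markers 5 were near the floor. Strips hold many cell types, and fewer cells of a type and less RNA per cell cannot be told apart. There were 7 arrays that stood apart, by a narrow distribution, distance from their group mean or high smooth muscle markers: PN replicate 4 and CH replicate 3 on day 5, PH replicate 5, CH replicate 3 and CN replicate 5 on day 7, and PH replicates 1 and 4 on day 13.

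Comparisons between days called more members than those of progesterone or pregnancy. They had 19 or 20 arrays on each side and the others 9 or 10, so the counts alone do not rank the factors. Averaged over the 4 groups, 19 probe sets were called between day 7 and day 5 (9 higher and 10 lower on day 7), against 20.7% of all probe sets (8.84% higher, 11.8% lower). Between day 13 and day 7, 43 were called (19 higher, 24 lower), against 36.9% of all (18.8% higher, 18.1% lower). Between day 16 and day 13, 11 were called (6 higher, 5 lower), against 8.65% of all (5.03% higher, 3.62% lower). These counts were 15.7%, 35.5% and 9.09% of the members, shares below or near those of all probe sets. The members' median difference was 0.01, -0.02 and 0.00 in the 3 comparisons in turn, and that of all probe sets 0.01, -0.01 and 0.00. Without the arrays that stood apart 23, 42 and 13 member probe sets were called, and the shares of all probe sets then are not given here.

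**Figure D1:**
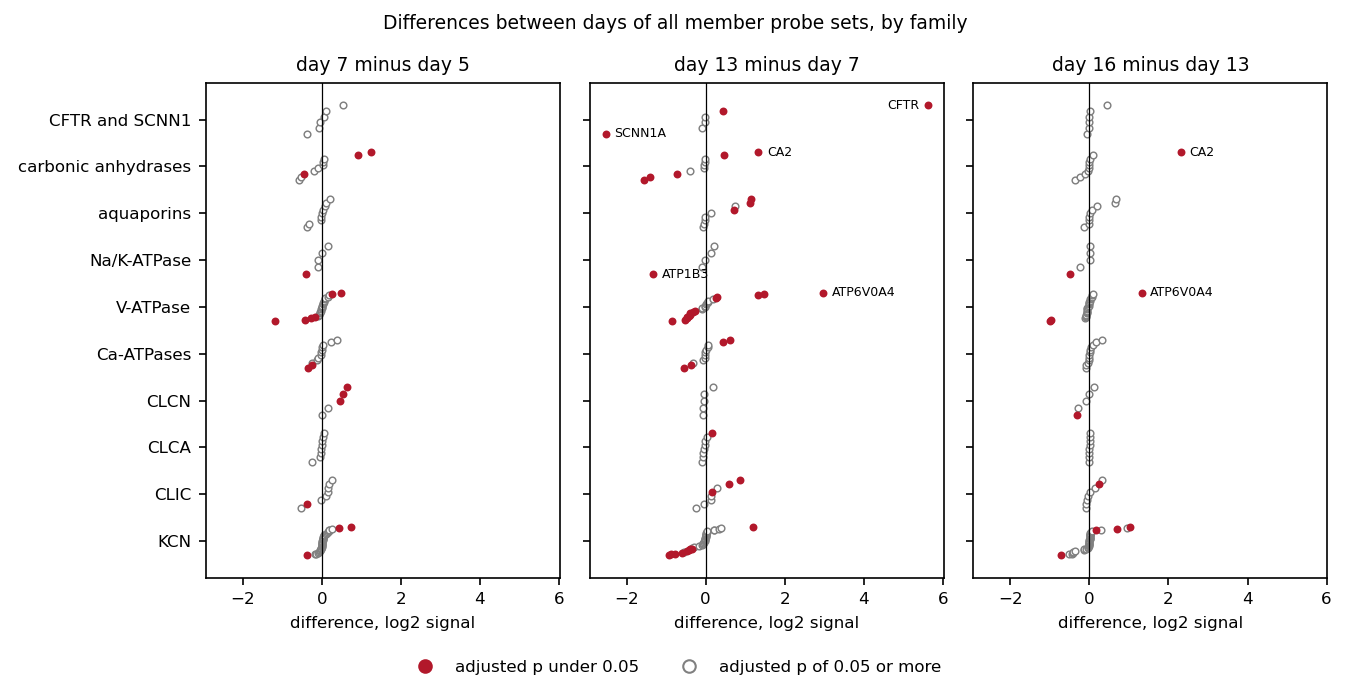
Difference in log2 signal between successive days for every member probe set, by family (filled points: adjusted p under 0.05). Most members lie near 0, and the widest spread is between day 13 and day 7, from -2.53 for SCNN1A to 5.62 for 1 of the CFTR probe sets.

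CFTR (gene ID 281067), the cyclic AMP-regulated chloride and bicarbonate channel, had the widest range of all members. On probe set B the lowest, median and highest of 20 arrays were 2.78, 4.49 and 7.49 on day 5. They were 2.71, 3.72 and 5.59 over 19 arrays on day 7, 7.90, 9.62 and 10.61 on day 13, and 8.89, 10.11 and 10.68 on day 16. Every day 13 array lay above every day 7 array. The difference between day 13 and day 7 was 5.62 ± 0.24 (limma, adjusted p = 3e-30), and it was 5.89 ± 0.46 in PH, 5.00 ± 0.46 in PN, 5.81 ± 0.49 in CH and 5.76 ± 0.46 in CN heifers, again without overlap in each. Among the members only ATP1B3 also separated these 2 days completely. How many of all probe sets did so was not counted, and the 36.9% called is another measure. So the separation was not shown to be particular to these genes. PRSS8, described below, separated the 2 days too. CFTR probe set A moved the same way and far less. It ran from 9.45 to 10.20 on day 13 and from 8.71 to 9.87 on day 7, a difference of 0.44 ± 0.08 (adjusted p = 6.2e-06), so the probe sets disagree on the size.

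SCNN1A (gene ID 282348), the pore-forming alpha subunit of ENaC, moved the other way. It ran from 2.92 to 4.70 on day 13, with a median of 3.44, and from 3.94 to 7.49 on day 7, with a median of 6.47. The day 13 values were lower by -2.53 ± 0.25 (limma, adjusted p = 2.6e-13). The overlap came from a few arrays: of the 19 on day 7, CN replicate 5 with 3.94, PH replicate 5 with 4.21 and PN replicate 4 with 4.68 lay within the day 13 range. The first pair of these stood apart, and without the arrays that stood apart the difference was -2.79. SCNN1A was not called between day 7 and day 5 (0.54 ± 0.25, adjusted p = 0.13) or between day 16 and day 13 (-0.00 ± 0.25). Its partner SCNN1G, the gamma subunit, stayed close to the floor, with a mean of 2.80 on its higher probe set.

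**Figure D2:**
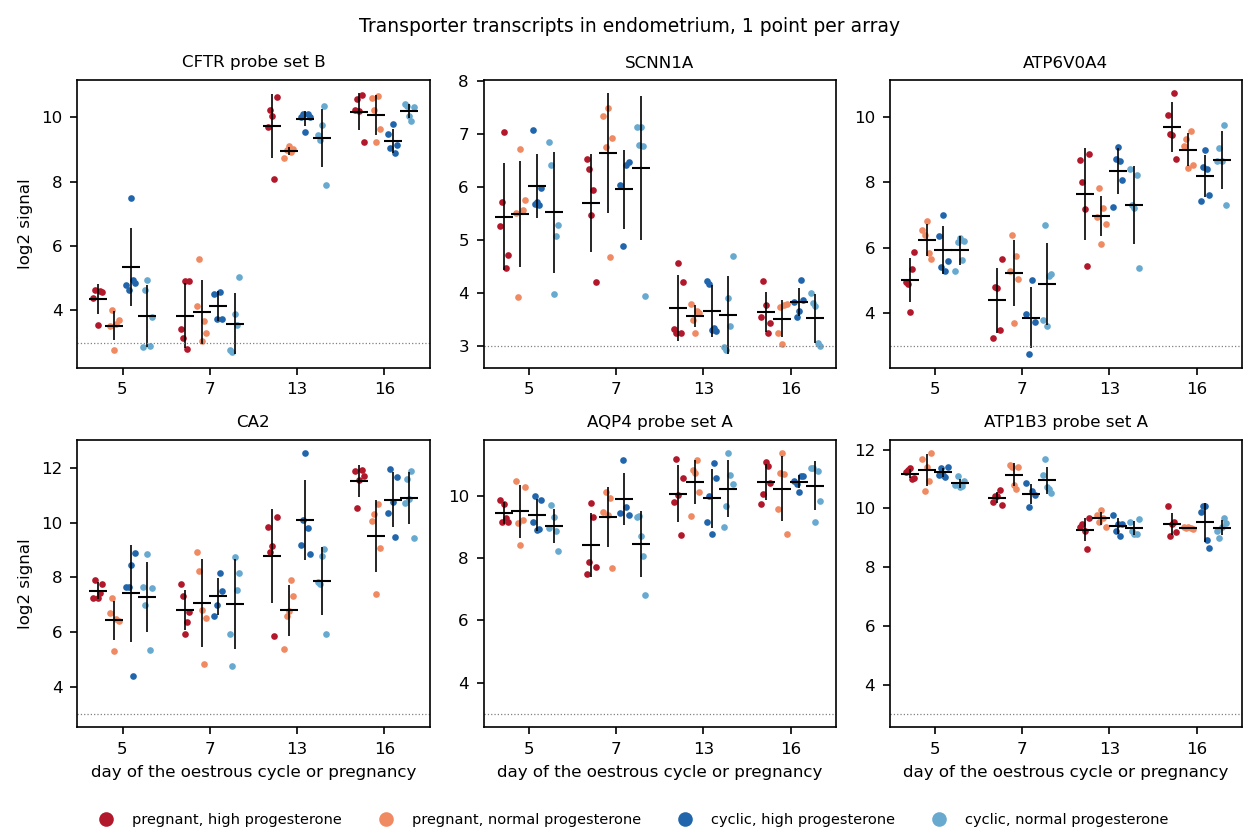
Log2 signal on each array by day and group, with the group mean (bar) and SD (line). The dotted line marks 3, the level taken as near the floor. CFTR on probe set B is high on days 13 and 16, SCNN1A is low on these days, ATP6V0A4 is lowest on day 7 and highest on day 16, and CA2 is highest on day 16.

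Regulators of these channels were taken from a list of which 18 of 29 genes were measured. Between day 13 and day 7 5 were higher and 1 lower, near the share of all probe sets called (36.9%). PRSS8, the membrane protease prostasin that activates ENaC, ran from 7.11 to 9.37 on day 13 and from 6.01 to 6.85 on day 7, a difference of 1.74 ± 0.14 (limma, adjusted p = 6.4e-17) with no overlap. NEDD4L, the ubiquitin ligase that removes ENaC from the membrane, was higher by 0.89 ± 0.14 and SGK3, a kinase of the SGK family, by 0.58 ± 0.15. STC1, the calcium-regulating hormone stanniocalcin, was higher by 1.20 ± 0.25. So the transcript of the alpha subunit of ENaC fell while those of both an activator and a remover of the channel rose. PRSS8 was higher again on day 16 than on day 13 by 0.91 ± 0.14, whereas SGK3 was lower by -0.50 ± 0.15. Of 11 epithelium markers 3 were higher and 3 lower on day 13 than on day 7. Their mean ran from 6.99 to 8.11 on day 13 (median 7.74) and from 7.23 to 7.62 on day 7 (median 7.48). Their part in the CFTR, SCNN1A and PRSS8 results was not tested.

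Carbonic anhydrases were 10 probe sets of 8 genes, and 2 probe sets were higher and 3 lower on day 13 than on day 7. Of all probe sets 18.8% were higher and 18.1% lower. CA2 (gene ID 280740), the fast cytosolic enzyme, went on climbing late. The lowest, median and highest values were 4.40, 7.35 and 8.89 on day 5 and 4.77, 6.98 and 8.91 on day 7. They were 5.37, 8.82 and 12.55 on day 13 and 7.39, 10.73 and 11.94 on day 16. CA2 was 1.34 ± 0.38 higher on day 13 than on day 7 (limma, adjusted p = 0.0034) and 2.31 ± 0.38 higher on day 16 than on day 13 (adjusted p = 1.4e-05). The step from day 7 to day 13 was not called in CN heifers alone. On day 13 CA2 was called 2.11 higher with high than with normal progesterone, as set out below. From day 13 to 16 the difference was 2.73 ± 0.75 in PH, 2.71 ± 0.75 in PN, 0.74 ± 0.75 in CH and 3.04 ± 0.75 in CN heifers, called in all but CH heifers (adjusted p = 0.72). The groups were not shown to differ in this step: the change of the CA2 effect from day 13 to day 16 was -1.14 ± 0.75 for progesterone (adjusted p = 0.96) and 0.83 ± 0.75 for pregnancy (adjusted p = 0.75).

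CA13 (gene ID 513850), another cytosolic carbonic anhydrase, peaked on day 7. On probe set B the medians on days 5, 7, 13 and 16 were 3.95, 5.55, 3.35 and 3.52, and single arrays ran from about the floor (2.48) to 7.28 on day 7 alone. Probe sets B and A were 1.24 ± 0.39 and 0.90 ± 0.32 higher on day 7 than on day 5. Both were lower on day 13 than on day 7, by -1.56 ± 0.39 and -1.40 ± 0.32. The call of probe set A between day 7 and day 5 was lost in 15 of 39 omissions of 1 array. CA8 and CA11 are carbonic anhydrase-related proteins without the enzyme's activity. CA8 was lower on day 13 than on day 7 on probe set A (-0.71 ± 0.21) and not called on probe set B (-0.05 ± 0.24). CA11 was lower on day 7 than on day 5 (-0.46 ± 0.16), a call lost in 8 of 39 omissions. The membrane-anchored CA4 was 0.45 ± 0.16 higher on day 13 than on day 7, at a mean of 3.28.

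Among aquaporins, 9 probe sets of 6 genes, 5 were near the floor and only AQP4 and AQP1 were measured above it. AQP4 (gene ID 281008), a basolateral water channel of several epithelia, ran from 8.74 to 11.36 on day 13 (median 10.25) and from 6.81 to 11.14 on day 7 (median 9.34). The ranges overlapped widely, and the difference was 1.13 ± 0.26 on one probe set and 1.15 ± 0.24 on the other (limma, adjusted p = 0.00019 and 8.4e-05). AQP1 (gene ID 282653), the water channel of capillary endothelium, was 0.73 ± 0.23 higher on day 13 than on day 7 on probe set A (adjusted p = 0.0078). On probe set B the difference was 0.74 ± 0.31 and not called (adjusted p = 0.053). Endothelium markers moved with it: 7 of 9 measured were higher on day 13 and none lower, and their mean over the list ran from 5.69 to 6.58 on day 13 and from 5.27 to 5.98 on day 7. Their part in the AQP1 result was not tested. No aquaporin was called in another of the 11 comparisons.

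The sodium pump was represented by its beta subunits, which bring the catalytic subunit to the membrane. ATP1B1 was not called in any of the 11 comparisons, with differences between days from -0.23 ± 0.10 to 0.13 ± 0.10. In PN heifers alone it was called 0.66 ± 0.20 higher on day 13 than on day 7 and lower on day 16 than on day 13 (-0.73 ± 0.20). ATP1B3 (gene ID 532844) stepped down on probe set A. Its lowest, median and highest values were 10.59, 11.11 and 11.90 on day 5, 10.05, 10.66 and 11.70 on day 7, 8.63, 9.46 and 9.96 on day 13, and 8.66, 9.36 and 10.08 on day 16. Every day 13 array lay below every day 7 array. The differences were -0.40 ± 0.11 between day 7 and day 5 (limma, adjusted p = 0.0045), -1.33 ± 0.11 between day 13 and day 7 (adjusted p = 2.3e-16) and 0.00 ± 0.11 between day 16 and day 13. In CN heifers alone the first of these was 0.0898 and not called. Its other probe set was near the floor in all groups. ATP1B2 was lower on day 16 than on day 13 (-0.48 ± 0.11), close to the floor. Markers of proliferating cells moved on the same days as ATP1B3. Of 6 measured, 5 were lower and 1 higher on day 7 than on day 5, and 4 were lower on day 13 than on day 7. The median over arrays of their mean was 7.28, 5.54, 4.35 and 4.15 on days 5, 7, 13 and 16. Their part in the day results was not tested.

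The V-ATPase is a rotary proton pump with a membrane sector, V0, and a cytosolic sector, V1. It was the family with most probe sets called between day 13 and day 7: 14 of 23, 5 higher and 9 lower. That was 60.9% of the family, against 36.9% of all probe sets (18.8% higher, 18.1% lower). The 14 belonged to 10 of the family's 17 genes. In the family 4 of 23 probe sets were near the floor in every group, whereas 32.2% of all probe sets had a mean under 3. With brighter probe sets only, 35 of 52 members of all families were called. So the share was not shown to be particular to the V-ATPase. The family's median difference was -0.02. All calls upward were of the V0 subunit a isoforms ATP6V0A4 and ATP6V0A2 and the V1 subunit ATP6V1C1. ATP6V0A4 (gene ID 518974), the isoform known from acid-secreting kidney cells, had medians of 5.75, 4.81, 7.58 and 8.85 on days 5, 7, 13 and 16. It ran from 5.38 to 9.08 on day 13 and from 2.74 to 6.70 on day 7. It was lower on day 7 than on day 5 by -1.19 ± 0.28 (limma, adjusted p = 0.00082). It was then 2.98 ± 0.28 higher on day 13 than on day 7 (adjusted p = 2.4e-14) and 1.32 ± 0.27 higher on day 16 than on day 13 (adjusted p = 0.00056).

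The last step of ATP6V0A4 was called in PH (2.05 ± 0.55) and PN heifers (2.03 ± 0.55), and not in CH (-0.17 ± 0.55) or CN heifers (1.37 ± 0.55). The groups were not shown to differ in it: the change from day 13 to day 16 was 1.44 ± 0.55 for the pregnancy effect (adjusted p = 0.37) and -0.76 ± 0.55 for the progesterone effect (adjusted p = 0.996), neither called. ATP6V0A2 (gene ID 338038), an isoform of the Golgi and endosomes, was high on day 13 alone. On probe set A it ran from 7.00 to 8.14 on day 7, from 7.76 to 10.26 on day 13 and from 7.21 to 9.33 on day 16. The differences were 1.33 ± 0.13 between day 13 and day 7 and -1.01 ± 0.13 between day 16 and day 13, and 1.47 ± 0.19 and -0.98 ± 0.18 on its other probe set. So the 2 isoforms parted after day 13.

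ATP6V1C1 was higher on day 13 by 0.25 ± 0.05 and 0.29 ± 0.08. The subunits that fell are listed in full, which names some after their values were seen. ATP6V1E1 fell by 0.84 on the log2 scale on day 13 after being 0.26 ± 0.09 higher on day 7 than on day 5, a call lost in 8 of 39 omissions. The catalytic subunit ATP6V1A was lower on 3 probe sets (-0.53 ± 0.04, -0.47 ± 0.08 and -0.43 ± 0.06). ATP6V1H was at -0.47 ± 0.09, ATP6V1D at -0.41 ± 0.06, ATP6V1B2 at -0.38 ± 0.12, ATP6V0D1 at -0.31 ± 0.06 and ATP6V1F at -0.28 ± 0.06. These differences were smaller than those of ATP6V0A4 and ATP6V0A2. ATP6V0A1, another isoform of subunit a, was called in no comparison. Its group means ran from 6.27 to 6.82 on probe set A, and its other probe set was near the floor. Between day 7 and day 5, 2 V-ATPase probe sets were higher and 4 lower, against 8.84% and 11.8% of all probe sets. ATP6V0B was 0.48 ± 0.09 higher, beside ATP6V1E1. ATP6V1B1, the isoform of acid-secreting kidney cells, was lower by -0.42 ± 0.10, with a mean of 3.24 in CH heifers on day 5 and near the floor in all other groups. ATP6V0D1 was lower by -0.29 ± 0.06 and ATP6V1F by -0.18 ± 0.06, beside ATP6V0A4. The ATP6V1F call was lost in 3 of 39 omissions, with quantile normalization and with median centring. The accessory protein ATP6AP1 was 0.28 ± 0.08 higher on day 7 than on day 5 and was lower on day 13 than on day 7 (-0.34 ± 0.08).

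**Figure D3:**
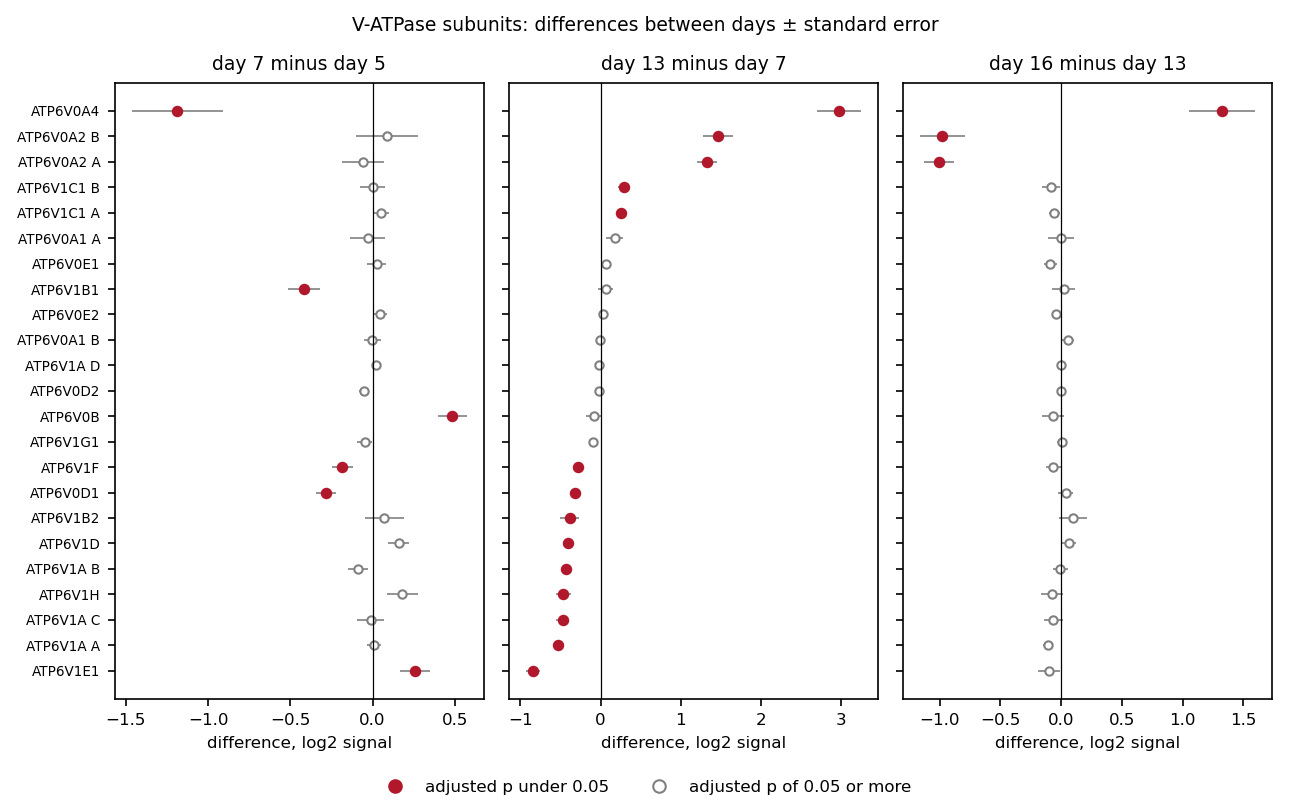
Difference in log2 signal between successive days for each V-ATPase probe set, with its standard error (filled points: adjusted p under 0.05). Between day 13 and day 7 ATP6V0A4 and ATP6V0A2 lie above 1 and 9 called probe sets lie below 0. Between day 16 and day 13 ATP6V0A4 and ATP6V0A2 take opposite signs.

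Of 12 calcium pump probe sets 2 were called lower on day 7 than on day 5, and 2 were higher and 2 lower on day 13 than on day 7. These were 16.7% and 33.3% of the family, against 20.7% and 36.9% of all probe sets. ATP2B1, the plasma membrane pump, was lower on day 7 than on day 5 on probe set A alone (-0.34 ± 0.10). It was higher on day 13 than on day 7 on probe sets A and B (0.61 ± 0.10 and 0.45 ± 0.11). Probe set C was called in neither comparison. ATP2C1, the Golgi calcium and manganese pump, was lower on day 13 than on day 7 (-0.55 ± 0.08). ATP2A2, the pump of the endoplasmic reticulum, was lower on probe set C alone of 4, by -0.25 ± 0.07 between day 7 and day 5 (limma, adjusted p = 0.0059) and by -0.38 ± 0.07 between day 13 and day 7. On probe set A the last difference was 0.05 ± 0.07.

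Other calcium, organelle and cation channels were taken from a list of which 23 of 45 were measured. On day 13 4 were higher and 5 lower than on day 7, near the share of all probe sets (36.9%). ITPR3, a calcium release channel of the endoplasmic reticulum, was lower on day 13 than on day 7 (-1.69 ± 0.20). So was VDAC2 of the mitochondrial outer membrane (-1.04 ± 0.10). MCOLN2, an endolysosomal cation channel, was higher by 1.04 ± 0.15 and by a further 0.57 ± 0.15 on day 16.

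CLCN3 and CLCN7, chloride-proton exchangers of endosomes and lysosomes, were higher on day 7 than on day 5. CLCN3 was higher by 0.55 ± 0.10 and CLCN7 by 0.47 ± 0.10 and 0.64 ± 0.13, which were 3 of the 5 CLCN probe sets. Of all probe sets 8.84% were higher in this comparison. CLCN4, of the same group of exchangers, was not called (0.16 ± 0.10, adjusted p = 0.34). None of the 5 was called between day 13 and day 7. CLCN4 was lower on day 16 than on day 13 (-0.32 ± 0.10). Of the chloride intracellular channel proteins, CLIC1 was lower on day 7 than on day 5 (-0.38 ± 0.08), then higher on day 13 (0.59 ± 0.08) and day 16 (0.25 ± 0.08). The day 16 calls of CLCN4 and CLIC1 were lost in 10 and 13 of 40 omissions. CLIC2 was 0.88 ± 0.24 higher on day 13 than on day 7 on 1 of its probe sets and CLIC4 0.17 ± 0.06 on 1 of 4, the CLIC4 call being lost without PH replicate 4 of day 13 (adjusted p = 0.061). CLIC5 was called in no comparison. CLCA genes, regulators of calcium-activated chloride channels, stayed between 2.32 and 3.36 on the only probe set called, a difference of 0.16 ± 0.05 that was lost without the arrays that stood apart.

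Exchangers and cotransporters of ions, a list of which 15 of 34 were measured, held 2 genes higher and 2 lower between day 13 and day 7. Of all probe sets 36.9% were called. SLC12A2, the basolateral sodium-potassium-chloride cotransporter that loads secretory cells with chloride, was 0.65 ± 0.20 higher on day 13 than on day 7 and 0.63 ± 0.20 higher on day 16 than on day 13. SLC4A7, a sodium-bicarbonate cotransporter, was lower on day 13 than on day 7 by -1.24 ± 0.18 (limma, adjusted p = 3.6e-08). SLC4A2, a chloride-bicarbonate exchanger, was lower by -0.43 ± 0.09.

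Potassium channel genes were 35 probe sets of 26 genes, of which 16 probe sets were near the floor in every group. Between day 13 and day 7 1 was higher and 8 lower, 25.7% of the family against 36.9% of all probe sets. KCNMB4 (gene ID 520448), the auxiliary beta4 subunit of the large-conductance calcium-activated channel BK, was lower by -0.92 ± 0.21 and -0.60 ± 0.24. The second of these calls was lost in 20 of 39 omissions of 1 array. KCNMB4 was lower again on day 16 than on day 13 on probe set B (-0.72 ± 0.24), a call lost in 23 of 40 omissions, and was not called on probe set A (-0.41 ± 0.20). KCNK1, a leak channel, was lower by -0.88 ± 0.15 and KCNQ1, a voltage-gated channel of many epithelia, by -0.78 ± 0.15. KCNQ1 had been 0.43 ± 0.15 higher on day 7 than on day 5, a call lost in 6 of 39 omissions. KCNMA1, the pore-forming subunit of BK, was lower on day 7 than on day 5 on probe set A (-0.38 ± 0.14) and on day 13 than on day 7 on probe set B (-0.47 ± 0.19). These calls were lost in 21 and 19 of 39 omissions, and the second had the opposite sign in CN heifers alone (0.163). All 8 smooth muscle markers had a negative difference between day 7 and day 5, with a median of -0.71 and 2 called, and their mean ran from 6.99 to 11.00 on day 7 and from 7.48 to 11.44 on day 5. Between day 13 and day 7 5 were positive and 3 negative, with 1 called lower. Their part in the KCNMA1 day results was not tested. KCNE4, an auxiliary subunit of voltage-gated channels, was 1.19 ± 0.37 higher on day 13, with arrays from 2.72 to 8.72 on day 13 and from 2.64 to 8.42 on day 7. KCNJ8, a subunit of ATP-sensitive channels known from vessel walls, was 0.74 ± 0.15 higher on day 7 than on day 5. On day 16 KCNK5, an acid-sensitive leak channel, was 0.69 ± 0.16 higher than on day 13. KCNRG, which encodes a channel regulator, was higher by 1.02 ± 0.30, a call lost without the arrays that stood apart.

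KCNMB1, the smooth muscle beta1 subunit of BK, was picked out after its values were seen. It reached 8.80 in PN replicate 4 on day 5, 7.98 in PH replicate 5 on day 7 and 10.18 in PH replicate 4 on day 13. On all other arrays it stayed at or below 4.44. These were the 3 arrays whose smooth muscle markers averaged over 10, and KCNMB1 was called in no comparison.

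The effect of added progesterone was asked on each day, over pregnant and cyclic heifers together. On day 5 2 member probe sets were called, both higher with high progesterone, against 0.908% of all probe sets (0.433% higher). Both belonged to KCNMB4. On probe set A PH heifers had 8.36, 6.91, 7.24, 7.35 and 7.84 and CH heifers 6.66, 7.42, 6.67, 7.14 and 5.93. Values were 6.10, 5.49, 5.68, 5.18 and 7.00 in PN and 7.14, 5.24, 6.11, 5.71 and 5.80 in CN heifers. High and normal progesterone overlapped in both pairs, and 7.00 in PN and 7.14 in CN heifers were the highest values with normal progesterone. The difference was 1.21 ± 0.29 (limma, adjusted p = 0.018) and 1.44 ± 0.34 on the other probe set (adjusted p = 0.015). It was 1.65 ± 0.41 in pregnant and 0.77 ± 0.41 in cyclic heifers, neither called alone. All 11 measured leukocyte markers had a positive difference on day 5, with a median of 0.48 and 0 called. All 8 smooth muscle markers had a negative one, with a median of -0.48 and 0 called. The mean of the leukocyte list ran from 5.00 to 8.74 with high and from 4.73 to 5.44 with normal progesterone, and that of the smooth muscle list from 7.69 to 8.47 with high and from 7.48 to 11.44 with normal progesterone. Their part in the KCNMB4 result was not tested. On day 7 the KCNMB4 difference was 0.08 ± 0.30, and its change from day 5 to day 7, -1.12 ± 0.41, was not called (adjusted p = 0.2). CFTR on probe set B differed by 1.18 ± 0.33 between high and normal progesterone on day 5, not called (adjusted p = 0.06).

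On day 7 1 probe set was called, lower with high progesterone, against 4.7% of all probe sets (2.84% lower). ATP1B3 was 10.23, 10.43, 10.44, 10.64 and 10.13 in PH and 10.88, 10.05, 10.59 and 10.46 in CH heifers. It was 11.48, 11.41, 10.80, 10.66 and 11.43 in PN and 11.13, 11.70, 10.73, 10.67 and 10.54 in CN heifers. The high groups were lower by -0.62 ± 0.16 (limma, adjusted p = 0.011), and PH lay below PN without overlap. This call was lost without the arrays that stood apart (-0.57, adjusted p = 0.0568). Markers of proliferating cells moved with it: 4 of 6 were lower with high progesterone on day 7, and their mean was 5.38 ± 0.87 in PH, 4.80 ± 0.67 in CH, 6.35 ± 0.85 in PN and 6.77 ± 1.34 in CN heifers (SD). Of 11 leukocyte markers 10 had a negative difference, with a median of -0.49 and 0 called, and their mean ran from 4.49 to 5.42 with high and from 4.51 to 6.19 with normal progesterone. Their part in the ATP1B3 result was not tested. Of the exchangers SLC4A7 was lower with high progesterone (-1.18 ± 0.26) and SLC4A11, a member of the same transporter family, higher (0.76 ± 0.19). MCOLN2 was higher with high progesterone on day 5 (0.95 ± 0.21) and day 7 (0.77 ± 0.21).

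On day 13 2 probe sets were called, 1 higher and 1 lower, against 0.441% of all (0.0458% higher, 0.396% lower). CA2 was 9.83, 8.93, 9.13, 5.86 and 10.20 in PH and 9.17, 10.08, 12.55, 9.78 and 8.86 in CH heifers. It was 5.37, 6.58, 6.78, 7.90 and 7.31 in PN and 7.83, 7.76, 8.78, 9.03 and 5.91 in CN heifers. Apart from PH replicate 4, at 5.86, the 10 arrays with high progesterone lay at or above 8.86, and 1 of the 10 with normal progesterone did. The difference was 2.11 ± 0.53 (limma, adjusted p = 0.044), close to the threshold. The call was lost in 13 of 20 omissions of 1 array, from each of the 4 groups, with differences from 1.81 to 2.48 and adjusted p up to 0.194. It was 2.00 ± 0.75 in pregnant and 2.23 ± 0.75 in cyclic heifers, neither called alone. Without the arrays that stood apart, PH replicate 4 among them, it was 2.43 (adjusted p = 0.0148). On day 7 the CA2 effect had been 0.01 ± 0.55, and the change to day 13, 2.10 ± 0.77, was not called (adjusted p = 0.19). ATP1B2, a beta subunit of the sodium pump, was lower with high progesterone (-0.69 ± 0.16, adjusted p = 0.018), close to the floor: arrays ran from 2.69 to 3.91 with high and from 2.78 to 4.65 with normal progesterone. That call was lost without CH replicate 3, PN replicate 3 or 4, or CN replicate 4 or 5 (adjusted p up to 0.084).

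On day 16 no member was called for progesterone (limma), against 0.0958% of all probe sets, and 3 had an unadjusted p under 0.05. Without the arrays that stood apart 8 were called, all higher with high progesterone, and with array weights 19 were, 17 higher and 2 lower. None of the arrays that stood apart was of day 16, so leaving them out changed the estimated spread and not the day 16 differences. Shares of all probe sets with these settings are not given here. CA2 differed by 0.98 ± 0.53 then (adjusted p = 0.49).

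**Figure D4:**
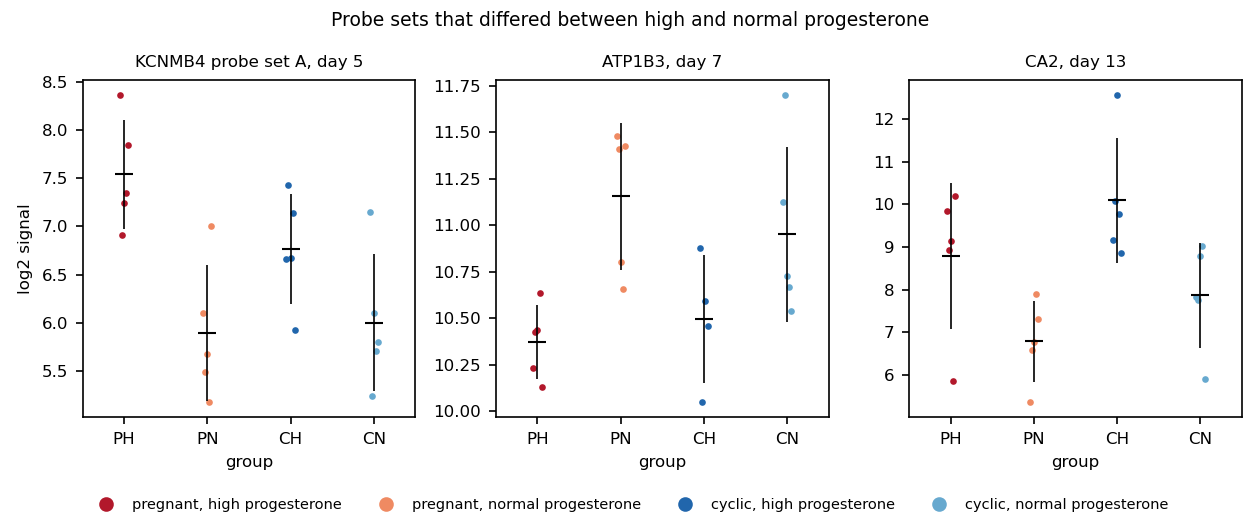
Log2 signal on each array on the day at which the gene was called for progesterone, with the group mean (bar) and SD (line). In each panel the difference has the same sign in pregnant (PH and PN) and cyclic (CH and CN) heifers, and values of high and normal progesterone overlap in all but the pregnant pair for ATP1B3.

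Pregnancy was compared with the cycle on each day, over both progesterone levels. By limma 0 members were called on days 5, 7 and 13, against 0.0167%, 0% and 0% of all probe sets, and an unadjusted p under 0.05 was reached by 17, 14 and 9. On day 16, when the conceptus has elongated, 6 probe sets were called, all lower in pregnant heifers, against 3.16% of all probe sets in either direction and 1.03% lower. They came from KCNMA1, ATP2A2 and CA8. Of the members of the secretory pathway, CFTR differed by 0.39 ± 0.33 on the probe set of wide range and SCNN1A by -0.09 ± 0.35, neither called.

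KCNMA1 (gene ID 282573) was lower in pregnant heifers on all 3 of its probe sets above the floor. On probe set B PH heifers had 5.14, 4.78, 5.34, 4.23 and 6.14 and PN heifers 6.25, 5.36, 5.98, 5.23 and 5.47. CH heifers had 7.04, 6.51, 6.40, 7.34 and 8.50 and CN heifers 6.27, 6.13, 7.37, 7.50 and 6.22. Of the pregnant heifers 8 of 10 lay below the lowest cyclic one. The difference was -1.54 ± 0.26 (limma, adjusted p = 2.9e-05), with -0.91 ± 0.19 on probe set A (adjusted p = 0.0011) and -1.23 ± 0.34 on probe set C (adjusted p = 0.024). The last call was lost without PH replicate 2 or 4, PN replicate 4, CH replicate 5 or CN replicate 3 (adjusted p up to 0.086). At high progesterone probe set B differed by -2.03 ± 0.37, without overlap, and at normal progesterone by -1.04 ± 0.37, not called alone. The difference between these, -0.99 ± 0.53, was not called (adjusted p = 0.41).

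KCNMA1 was the only member called for a change of the pregnancy effect between days, against 0.974% of all probe sets from day 13 to day 16. On day 13 the effect on probe set B was -0.03 ± 0.26, and it moved by -1.50 ± 0.37 to day 16 (adjusted p = 0.02). The change was -0.96 ± 0.27 on probe set A (adjusted p = 0.073) and -1.49 ± 0.48 on probe set C (adjusted p = 0.16), neither called.

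Smooth muscle markers differed the same way on day 16. All 8 measured had a negative difference and 0 were called, with a median of -0.44 and the lowest values for ACTA2 (-1.33 ± 0.46) and CNN1 (-1.09 ± 0.53). Their mean over the list ran from 6.28 to 7.83 in pregnant heifers, with a median of 7.05, and from 6.63 to 8.15 in cyclic heifers, with a median of 7.42. Endothelium markers ran from 5.57 to 6.36 in pregnant and from 5.68 to 6.61 in cyclic heifers, with 3 of 9 called lower. On day 13 all 8 smooth muscle markers had had a positive difference, with a median of 0.78 and 0 called. No smooth muscle marker and 2 of 9 endothelium markers had a mean near the floor. Of 11 epithelium markers 1 was called higher and 0 lower in pregnant heifers, and of 10 stroma markers 0 higher and 2 lower. The epithelium mean ran from 7.89 to 8.24 in PH and from 7.50 to 7.85 in CH heifers, without overlap. It ran from 7.54 to 8.15 in PN and from 7.62 to 8.08 in CN heifers. The part of these marker lists in the day 16 results for KCNMA1, ATP2A2, CA8 and PRSS8 was not tested.

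ATP2A2 (gene ID 540568), which is also the calcium pump of the sarcoplasmic reticulum in muscle, was lower on probe set A. PH heifers had 9.50, 9.62, 9.62, 9.18 and 9.61 and PN heifers 9.86, 9.95, 9.70, 9.71 and 9.81. CH heifers had 10.15, 10.17, 10.17, 10.03 and 10.02 and CN heifers 10.08, 10.20, 9.89, 10.08 and 9.64. Every PH array lay below every CH array, while PN and CN overlapped. The difference was -0.39 ± 0.09 (limma, adjusted p = 0.0052), and -0.38 ± 0.09 on a second probe set. It was -0.60 ± 0.13 at high and -0.17 ± 0.13 at normal progesterone, the first called and the second not. ITPR1, a calcium release channel of the list of other channels, was lower too (-0.51 ± 0.14).

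CA8 (gene ID 515918), a carbonic anhydrase-related protein that binds the receptor encoded by ITPR1, ran from 4.18 to 6.80 in pregnant heifers and from 5.39 to 8.04 in cyclic heifers on probe set B. The difference was -1.31 ± 0.34 (limma, adjusted p = 0.013), lost without PH replicate 4 or CH replicate 5 (adjusted p up to 0.061), and -0.97 ± 0.30 on its other probe set, not called (adjusted p = 0.055). PRSS8 stood the other way, from 8.51 to 10.42 in pregnant and from 7.88 to 9.60 in cyclic heifers, a difference of 0.95 ± 0.19 (adjusted p = 0.00069). Of the 18 measured genes on the list of ion transport regulators, each by 1 probe set, PRSS8 was the 1 higher and PRKACA, close to the floor, the 1 lower (-0.38 ± 0.08). Of the 15 measured exchanger genes limma called 0, with 2 at an unadjusted p under 0.05. Of the 23 other channel genes ITPR1 was lower (-0.51 ± 0.14).

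At high progesterone alone 6 member probe sets were called on day 16, 2 higher and 4 lower in PH than in CH heifers, against 7.78% of all probe sets. At normal progesterone alone 0 members were called by limma, against 0.658% of all, and 9 members reached an unadjusted p under 0.05. At high progesterone the 2 higher were CLIC1 (0.58 ± 0.16) and ATP6V1H (0.67 ± 0.18), and the 4 lower belonged to KCNMA1 and ATP2A2. No member was called for the difference between the effects of pregnancy at high and normal progesterone on any day, against 0%, 0.025%, 0.0208% and 0.87% of all probe sets on days 5, 7, 13 and 16, and 3, 24, 8 and 9 members had an unadjusted p under 0.05.

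**Figure D5:**
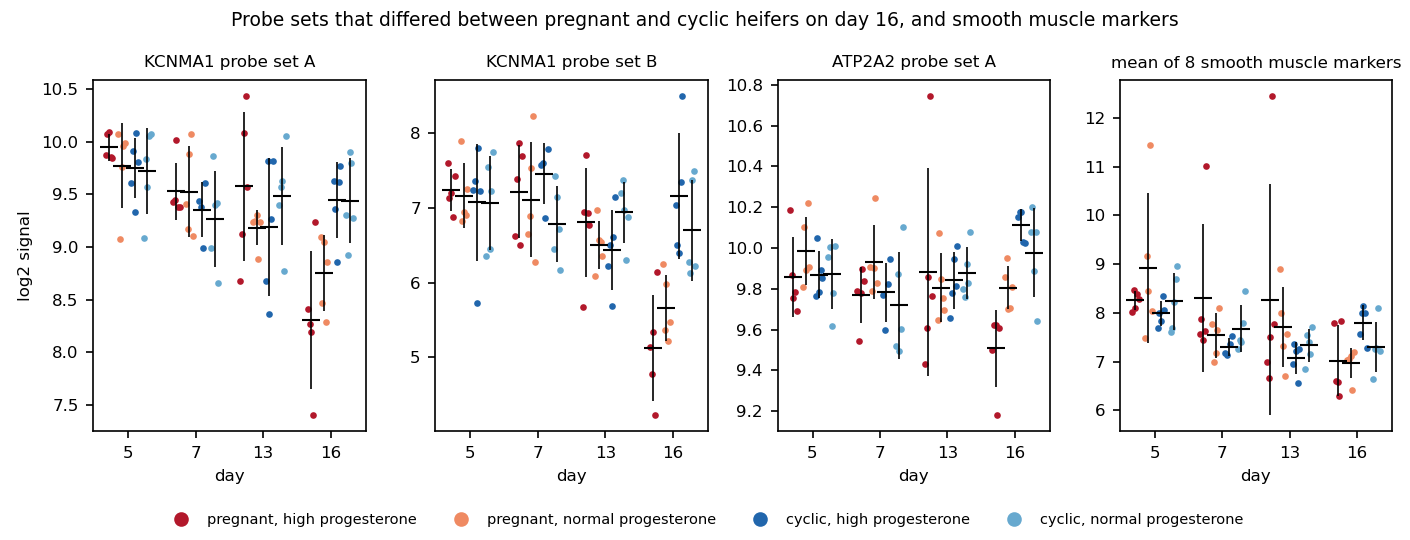
Log2 signal on each array by day and group for the KCNMA1 and ATP2A2 probe sets, and the mean of 8 smooth muscle markers, with the group mean (bar) and SD (line). On day 16 most PH and PN arrays lie below the CH and CN arrays for KCNMA1, and 3 arrays of days 5 to 13 have smooth muscle markers above 10.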

How the data were processed

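The authors deposited log2 signals, 1 table for 79 arrays. RMA, GCRMA and limma are named per the submitters' processing notes, without versions or roles, and which of the first pair made the values is not given in the sources used here. The labels' protocols describe Trizol RNA from endometrial strips, DNase treatment and biotin-labelled cRNA. Values ran from 0.95 to 15.37 and array medians from 4.71 to 5.12. After removal of 112 controls, 24016 probe sets were fitted without a filter.

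Symbols came from the platform annotation. All 121 member gene IDs were found in a current RefSeq cattle table, used for names only. A gene is represented by its probe set of highest mean. Members and lists were chosen with earlier results of these data known, and the lists support nothing by themselves.

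Means of the 16 groups were fitted with limma 3.58.1 in R 4.3.3 (statmod 1.5.0) on 63 residual and 1.49 prior degrees of freedom. Day comparisons average 4 groups, and progesterone and pregnancy comparisons average 2 pairs, with equal weights. Each comparison was adjusted over all probe sets. Arrays counted as apart had an SD of values under 2.7, an SD of deviations from group means over 0.45, or smooth muscle markers over 10. Equal replicate numbers were not taken to pair arrays. Mean correlations of deviations of same-numbered arrays were 0.0294, 0.0467, 0.0228 and -0.00919 on days 5, 7, 13 and 16. For arrays of other numbers and groups they were -0.00762, -0.0107, -0.00563 and 0.00218. Such means cannot exclude a weak pairing.

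The text names up to 8 highest and 8 lowest genes called per comparison, per family the gene of highest level, of widest range and, in families of at most 12 genes, each gene called, 19 genes fixed by name, and up to 3 genes called per further list. Genes under 3 in all groups are otherwise only counted. Tested on simulated data with 24016 probe sets, the fit for pregnancy on day 16 recovered 90 of 100 differences of 1 and 99 of 100 of 2, with 7 false calls. The simulated noise was independent between probe sets and equal in spread on every array. Real arrays include some that stood apart, so these figures need not hold for them. Alternatives were a fit of the days compared, quantile normalization, median centring, brighter probe sets, array weights, moderation with a trend and robustly, replicate number as a block, 1 probe set per gene, omission of arrays, and each arm alone. Comparisons of an arm alone came from the main fit of all arrays. Python 3.11.15, pandas 2.3.3 and matplotlib 3.10.9 were used.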

Additional observations from a re-analysis of the deposited data

Results flagged for a closer look

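Single arrays stood far from the others of their group in 16 of 192 groups examined, over 12 probe sets, where chance gives about 1 in 20. The values come from limma's input, the deposited log2 signals, and each is set beside the range of the other arrays of its group.

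CFTR on probe set B was 7.49 in CH replicate 3 on day 5 (others 4.64 to 4.94), 3.54 in PH replicate 3 on day 5 (others 4.40 to 4.63) and 9.54 in CH replicate 3 on day 13 (others up to 10.11). On probe set A CFTR was 9.07 in CH replicate 4 on day 5 (others 9.56 to 9.67) and 10.10 in CH replicate 4 on day 13 (others 9.78 to 9.86). SCNN1A was 7.08 in CH replicate 1 on day 5 (others 5.66 to 5.99), 4.68 in PN replicate 4 on day 7 (others 6.75 to 7.49) and 3.94 in CN replicate 5 on day 7 (others 6.77 to 7.14).

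ATP6V0A2 was 7.21 in PH replicate 4 on day 16 (others 7.72 to 7.91). CA2 was 4.40 in CH replicate 4 on day 5 (others 7.63 to 8.89) and 10.51 in PH replicate 2 on day 16 (others 11.57 to 11.93). AQP4 was 11.14 in CH replicate 3 on day 7 (others 9.38 to 9.62). KCNMB4 was 5.46 in PN replicate 2 on day 7 (others 6.70 to 7.14). KCNMA1 was 10.01 in PH replicate 3 on day 7 (others 9.38 to 9.44) and 8.89 in PN replicate 4 on day 13 (others 9.23 to 9.30) on probe set A, and 5.73 in CH replicate 3 on day 5 (others 7.23 to 7.80) on probe set B. CH replicate 3 of days 5 and 7 and CN replicate 5 of day 7 are among the arrays that stood apart.

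The effect of pregnancy on KCNMA1, probe set B, differed between days 16 and 13 by -1.50 ± 0.37 (limma, adjusted p = 0.02).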

How the results depend on the processing

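Of 84 calls of single probe sets, 67 held in every omission of 1 array and 18 in every setting run. Over the other alternatives 699 of 807 values kept direction and call, 106 lost the call and 2 reversed: in CN heifers alone ATP1B3 differed by 0.0898 between day 7 and day 5, and KCNMA1 on probe set B by 0.163 between day 13 and day 7. The causes were not tested. In CN heifers alone 0, 19 and 1 members were called between successive days, in comparisons of fewer arrays per day within the main fit. With array weights 18 were called between day 16 and day 13, 4, 0, 4 and 19 for progesterone on days 5, 7, 13 and 16 (17 of the 19 higher), and 2 and 17 for pregnancy on days 13 and 16. A fit of the days compared gave 1, 0 and 0 calls for progesterone on days 5, 7 and 13. With 1 probe set per gene, progesterone gave 1 call on day 5 and 2 on day 7, and pregnancy 3 on day 16. Quantile normalization and trend and robust moderation each gave 2 for progesterone on day 7, and brighter probe sets 1 on day 13. Without the arrays that stood apart progesterone gave 0 on day 7 and 8 on day 16, all higher, although none of those arrays was of day 16. Cyclic heifers alone gave 0, 3, 0 and 1 for progesterone on days 5, 7, 13 and 16. The 3 on day 7 were higher and shared 0 probe sets with the 1 called lower over both pairs, and the 1 on day 16 was lower. Of the other arms alone, pregnant heifers gave 0 for progesterone on days 5, 7 and 13, and normal progesterone 0 for pregnancy on day 16. The replicate block, whose numbers were not taken to pair arrays, gave 1 for progesterone on day 13, in place of 2. It moved no other count by over 1.5 times. Omissions of 1 array gave 1 to 4 calls for progesterone on day 7, the count rising without CH replicate 2, 4 or 5, and 0 to 3 on day 13. For the other comparisons no omission moved the count by over 1.5 times. Shares of all probe sets called are not given for these settings, so the counts cannot be read as particular to the members. Low signals limit what can be seen: 40 of 121 probe sets were near the floor.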
